A study of Canis lupus familiaris with 10 samples.

Results

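The 10 genes of endothelial identity followed here (ERG, CDH5, VWF, PECAM1, ROBO4, EGFL7, MMRN2, S1PR1, MCAM and TM4SF18) were measured in cultured canine hemangiosarcoma cells. Members were all probe sets that the array annotation names for 1 of these genes alone, which gave 27 of 42924 probe sets besides the controls and 10 of 15115 named genes. RNA came from cultures of hemangiosarcomas of 10 adult pet dogs, with 1 Canine_2 array per dog, and the cultures had been frozen at a low passage. The Golden Retriever group held 6 dogs, 3 of them female (CHAD-G6, Frog and Journey, of which Frog and Journey were related) and 3 male (CHAD-G4, CHAD-G8 and Tucker). The F1 dog, DD-1, was a male cross of Golden Retriever and Great Pyrenees. The non-Golden Retriever group held 3 males, the Portuguese Water Dog CHAD-P9, the Dalmatian Dal-4 and the Rottweiler Joey, so breed and sex are partly confounded. No treatment or genetic change was applied to any culture. Each culture stood for 1 tumor, no culture was arrayed again, and each SD below is the spread between dogs, with any error of culture and array within it.

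Hemangiosarcoma is a malignant tumor whose cells form irregular blood-filled channels, and endothelial proteins are used in its diagnosis. ETS transcription factors such as ERG hold endothelial cells in their state and switch on junction genes, among them CDH5. Endothelial cells in culture can lose parts of this program over passages. The comparisons asked which of the genes gave signal in the cultures, whether they rose and fell together from dog to dog, and whether they differed with the breed label.

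Signals are log2 values of robust multiarray average (RMA) intensity. They may be compared between dogs for 1 probe set, but not between probe sets, since each has its own brightness. A probe set was called above the line on an array where it exceeded the 40th percentile of that array, which lay between 5.02 in Dal-4 and 5.16 in Journey. Of all 42924 probe sets, 52.9% were above the line on all 10 arrays and 32.9% on 0. A signal under the line does not show that the transcript was absent, and one above it does not by itself show that it was present. In these bulk cultures fewer expressing cells and less RNA per cell cannot be told apart. In mean distance to the other dogs over all tested probe sets, Dal-4 (145.3) and CHAD-G4 (139.3) stood farthest, against 102.1 to 124.5 for the rest. Dal-4 also went against its recorded sex at 1 of 3 probe sets of EIF2S3, which the X and the Y chromosome both carry. It had 2.95 there, like the 3 females (3.08 to 3.33) and unlike the other 6 males (10.15 to 10.60). At the other EIF2S3 probe sets Dal-4 had 12.56 and 11.47, under the females (12.98 to 13.23 and 12.01 to 12.12). The male CHAD-G4 had 13.18 and 12.19, and the other males lay under the females. The recorded sex of Dal-4 therefore stays unsettled. Results on the members that turn on either dog are given without it, and those on other genes only in part.

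Of the 27 member probe sets, 13 (48.1%) were above the line on all 10 arrays, 3 on some arrays and 11 (40.7%) on 0. By the brightest probe set of each gene, 7 of the 10 genes (70%) were above the line in all dogs, against 64.0% of all 15115 named genes by the same rule. ERG joined them through its second probe set, so 8 genes were above it in all 10 dogs by at least 1 probe set: ERG, CDH5, ROBO4, EGFL7, MMRN2, S1PR1, MCAM and TM4SF18. PECAM1 was above it in 0 dogs and VWF in CHAD-G4 and CHAD-G6 alone. The count of 13 fell to 6 at the 50th percentile and to 2 at the 60th.

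**Figure D1:**
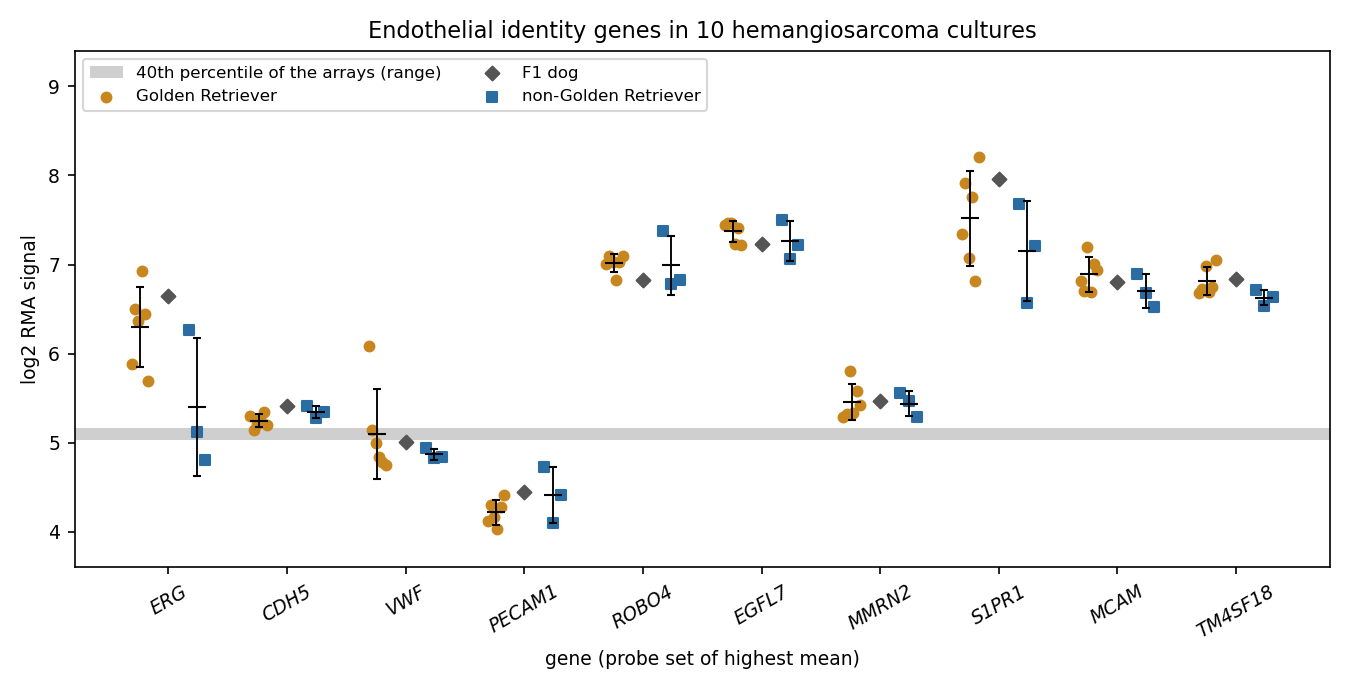
Log2 RMA signal (vertical axis) of each gene's brightest probe set in each dog, for Golden Retrievers (circles), the F1 dog (diamond) and non-Golden Retrievers (squares), with group mean ± SD in black and the range of the arrays' 40th percentiles, 5.02 to 5.16, as a grey band. All PECAM1 points lie under the band, CDH5 lies just above it, and ERG, S1PR1 and VWF spread most; heights of different genes are not comparable.

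PECAM1 (gene 610775, chromosome 9; chromosomes are those of assembly UU_Cfam_GSD_1.0) encodes CD31, an adhesion molecule of endothelial junctions, platelets and leukocytes. It has 4 probe sets on the array, and all 4 were under the line in all 10 dogs. The brightest had a lowest, median and highest signal of 4.03, 4.22 and 4.41 in Golden Retrievers and 4.44 in the F1 dog, against 4.72 in CHAD-P9, 4.10 in Dal-4 and 4.41 in Joey. The nearest it came to the line was 0.40 log2 units under it. The other 3 probe sets lay between 2.74 and 3.51, and no dog stood out as having PECAM1 signal. The group means of the brightest differed by -0.19 without a test, by -0.04 without CHAD-P9 and by -0.35 without Dal-4.

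CDH5 (gene 489775, chromosome 5) encodes VE-cadherin, which joins endothelial cells at adherens junctions. Only the brightest of its 4 probe sets was above the line in all dogs, by 0.06 to 0.31 log2 units. Its lowest, median and highest signals were 5.15, 5.24 and 5.35 in Golden Retrievers, the F1 dog had 5.41, and CHAD-P9, Dal-4 and Joey had 5.41, 5.28 and 5.34. The groups overlapped, and the SD over the 10 dogs, 0.089, was smaller than that of all but 2.31% of probe sets. A second probe set was above the line in CHAD-P9 alone, at 5.15 against 4.38 to 4.81 in the other dogs, and the remaining 2 were under it in all dogs. The signal of CDH5 was therefore near the line at best and close to constant.

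VWF (gene 399544, chromosome 27) encodes von Willebrand factor, the clotting protein that endothelial cells and megakaryocytes store, and has 1 probe set. CHAD-G4 had 6.08, CHAD-G6 5.14, and the other Golden Retrievers between 4.75 and the 5.01 of the F1 dog, against 4.94, 4.83 and 4.84 in CHAD-P9, Dal-4 and Joey. Only CHAD-G4 was clearly above the line, by 1.01 log2 units. The group means differed by 0.23, which was 0.03 without CHAD-G4, and the probe set was above the line on too few arrays to be tested.

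ERG (gene 487760, chromosome 31), the ETS factor itself, varied most of the 27 probe sets at its brightest one, with an SD of 0.683 over the 10 dogs. Its lowest, median and highest signals were 5.69, 6.40 and 6.93 in Golden Retrievers and it had 6.65 in the F1 dog, against 6.27 in CHAD-P9, 5.12 in Dal-4 and 4.80 in Joey. Joey was the only dog under the line, by 0.22 log2 units, and Dal-4 was near its own line of 5.02, whereas CHAD-P9 lay within the Golden Retriever range, so the groups overlapped. Its second probe set was above the line in all dogs and nearly flat, at 5.58 to 5.91 in Golden Retrievers and 5.77 in the F1 dog, against 5.82, 5.59 and 5.70 in the non-Golden Retrievers. The 2 remaining probe sets lay between 3.01 and 3.45. Only the first of the 4 probe sets therefore showed a spread between dogs. Among markers of other cell types, the epithelial gene EPCAM had 8.03 in Tucker, the Golden Retriever with the least ERG, and 3.79 to 4.72 in the other Golden Retrievers and 3.72 in the F1 dog, against 8.87 in Joey, the dog with the least ERG, 3.66 in CHAD-P9 and 3.62 in Dal-4. The other epithelial markers did not share this order. KRT8 had 9.45 in Tucker, the lowest of the Golden Retrievers, and 10.34 in Joey. KRT18 had 11.88 in Tucker and 12.52 in Joey, but also 11.61 in Frog, the dog with the most ERG, and 13.22 in Journey. CDH1 was under the line in all dogs. The part of EPCAM in the ERG values was not tested.

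S1PR1 (gene 490138, chromosome 6) encodes the sphingosine-1-phosphate receptor that steadies endothelial junctions and also guides lymphocytes. Its only probe set had a lowest, median and highest signal of 6.81, 7.55 and 8.21 in Golden Retrievers and 7.96 in the F1 dog, against 7.68, 6.57 and 7.21 in CHAD-P9, Dal-4 and Joey. Tucker was highest and Dal-4 lowest, and the groups overlapped widely. S1PR1, the first ERG probe set and VWF were the only member probe sets with an SD over 0.3.

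At their brightest probe sets the remaining 5 genes were above the line in all dogs with little spread. So were some markers of other cell types, such as the leukocyte gene CD3E (SD 0.118) and the platelet gene GP9 (SD 0.163). The line does not separate expression from probe background. ROBO4 (gene 489306, chromosome 5), a guidance receptor of vessel walls, had 6.82, 7.03 and 7.10 as lowest, median and highest in Golden Retrievers and 6.82 in the F1 dog, against 7.37, 6.78 and 6.82 in CHAD-P9, Dal-4 and Joey. EGFL7 (gene 491250, chromosome 9), a matrix-bound factor that endothelial cells secrete, had 7.22, 7.42 and 7.47 in Golden Retrievers and 7.23 in the F1 dog, against 7.50, 7.06 and 7.22. At these brightest probe sets CHAD-P9 was the highest of all dogs and Dal-4 the lowest, which the second probe sets of ROBO4 and EGFL7 did not share in full: there Frog was lowest for ROBO4 (5.07, with 5.47 in Dal-4) and CHAD-G6 highest for EGFL7 (7.43, with 7.18 in CHAD-P9). TM4SF18 (gene 477107, chromosome 23), a 4-pass membrane protein, had 6.67, 6.74 and 7.05 in Golden Retrievers and 6.84 in the F1 dog, against 6.71, 6.54 and 6.64. Only this brightest of its 3 probe sets was above the line. The others had 3.14 to 3.68 and 2.935 to 3.295 and were under it in all dogs. MMRN2 (gene 489078, chromosome 4) encodes multimerin-2, a matrix protein laid around vessels. It had 5.29, 5.38 and 5.80 in Golden Retrievers and 5.47 in the F1 dog, against 5.56, 5.47 and 5.29, with CHAD-G8 the highest dog and Joey the lowest. The margin of MMRN2 over the line was 0.22 to 0.66 log2 units. MCAM (gene 489368, chromosome 5), the adhesion molecule CD146 of endothelial cells, pericytes and smooth muscle, had 6.69, 6.88 and 7.20 in Golden Retrievers and 6.81 in the F1 dog, against 6.90, 6.68 and 6.52. At this brightest of its 5 probe sets CHAD-G8 was again highest and Joey lowest. The groups of all 5 genes overlapped.

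The members were flatter than most probe sets. The median SD over the 10 dogs was 0.152 for the 27 member probe sets and 0.237 for all 42924, and it was 0.173 for the 14 members that were tested and 0.328 for all 26891 tested probe sets. An SD under 0.3 was found for 24 of the 27 members, against 61.2% of all probe sets, and for 12 of the 14 tested members, against 44.6% of tested ones. These counts are descriptions, and the low signal of many members was not separated from their low spread.

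By breed label, ERG was the member with the largest difference and no member passed the adjusted test. Probe sets were tested with limma, 6 Golden Retrievers against 3 non-Golden Retrievers without the F1 dog, if they were above the line on at least 3 arrays, which 14 member probe sets of 8 genes were. VWF and PECAM1 had none. Of the 14, 0 passed at an adjusted p under 0.05, where 0.00372% of all 26891 did, and 1 had an unadjusted p under 0.05, where 6.32% of all did (1.81% higher and 4.5% lower in Golden Retrievers). That 1 was ERG, at 6.30 ± 0.447 in Golden Retrievers (SD, n = 6) and 5.40 ± 0.771 in non-Golden Retrievers (SD, n = 3). The fitted difference was 0.90 on the log2 scale, with an SE of 0.356 (adjusted p = 0.774 in the limma fit). An exact permutation test of this 1 probe set over the 84 splits of 6 dogs against 3, two-sided, gave p = 0.0714. The ERG difference was 0.61 without Joey and 0.76 without Dal-4, and the unadjusted limma p was above 0.05 without either of them, without CHAD-G6, CHAD-G8, Frog or Journey in turn, among males alone and by the methods' t-test. The second ERG probe set had a difference of 0.07 (SE 0.124).

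S1PR1 averaged 7.52 ± 0.533 in Golden Retrievers (SD, n = 6) and 7.15 ± 0.559 in non-Golden Retrievers (SD, n = 3), with a difference of 0.37 (SE 0.345) that was 0.07 without Dal-4. The other 12 tested members had differences between -0.19 and 0.19. Among them, MCAM and TM4SF18 had 0.19 (SE 0.156) and 0.18 (SE 0.135) at their brightest probe sets, and CDH5 had -0.10 (SE 0.111). The 2 probe sets of ROBO4 had 0.02 (SE 0.158) and -0.19 (SE 0.132). In all, 10 of the 14 were higher and 4 lower in Golden Retrievers, with a median difference of 0.07, against -0.02 over all tested probe sets, of which 47.2% were higher. For 0 of the 14 did the groups fail to overlap, where this was so for 2.45% of all tested probe sets (0.792% with Golden Retrievers above and 1.66% below). The number of arrays limits the precision, and a difference that did not pass is not shown to be absent.

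**Figure D2:**
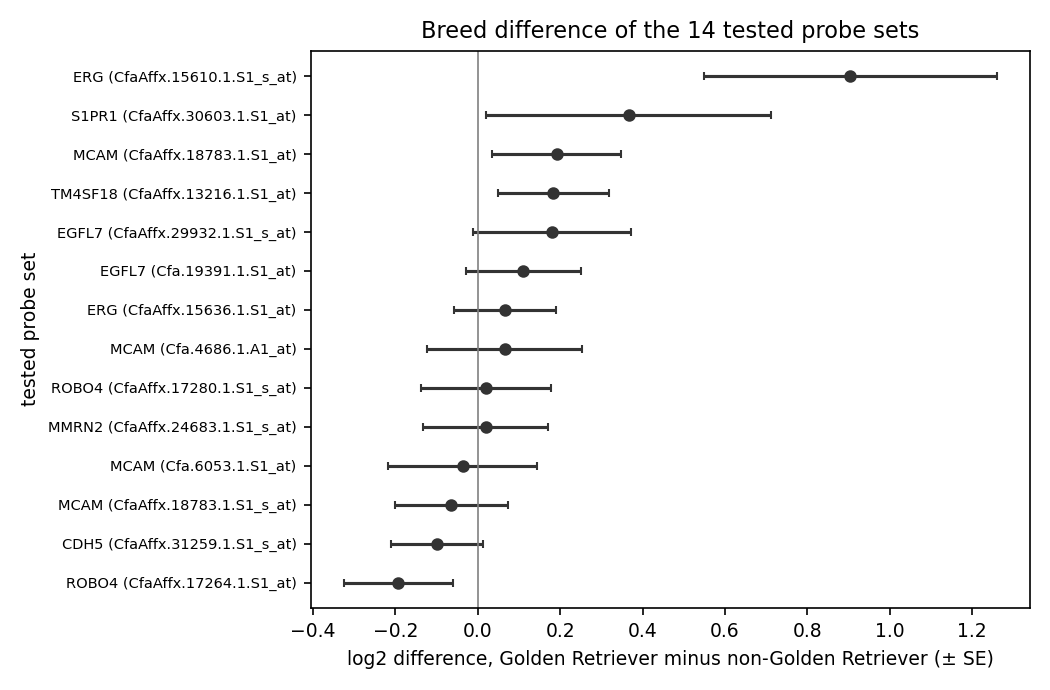
Difference in log2 signal between Golden Retrievers and non-Golden Retrievers, positive where Golden Retrievers were higher (horizontal axis), with the limma SE as bars, for the 14 tested member probe sets, largest at the top. One ERG probe set stands at 0.90 and S1PR1 at 0.37, and the other 12 lie between -0.19 and 0.19.

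From dog to dog the genes did not move as 1 block. Each gene was taken by its probe set of highest mean, and Pearson's r over the 10 dogs was computed for all 45 pairs. The median r was 0.21 and the median Spearman's rho 0.26, with 31 pairs above 0, whereas the median over all pairs of 11139 tested named genes was 0.00 (quartiles -0.30 and 0.31). An r of 0.5 or more was reached by 5 pairs (11.1%), close to the 12.5% of all such pairs. ERG had an r of -0.03 with CDH5, 0.04 with VWF and -0.06 with PECAM1, and CDH5 with VWF had -0.02, pairs in which CDH5, VWF and PECAM1 lay near or under the line. With genes above it, ERG had 0.48 (EGFL7), 0.41 (MCAM), 0.40 (S1PR1) and 0.31 (TM4SF18), and these were -0.13, -0.33, -0.10 and -0.40 without Joey and Dal-4, the 2 dogs with the least ERG. The pair of CDH5 and PECAM1 had an r of 0.49, with PECAM1 under the line in all dogs.

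An unadjusted permutation p under 0.05 was reached by 3 pairs, and 0 of 45 passed after adjustment (smallest adjusted p = 0.107, two-sided permutation test with 100000 resamples). Chance alone would bring a few of 45 pairs under 0.05, so the 3 pairs are described but not shown to stand out. An r of 0.5 or more was also reached by 12.5% of all pairs of tested named genes. MMRN2 and MCAM had r = 0.84 (permutation p = 0.00238, adjusted p = 0.107) and rho = 0.71 (permutation p = 0.0267, adjusted p = 0.40), and r was 0.61 without the 2 dogs farthest from the median of MMRN2 and 0.93 within the 6 Golden Retrievers. ROBO4 and EGFL7 had r = 0.76 (permutation p = 0.00768, adjusted p = 0.173) and rho = 0.78 (permutation p = 0.0106, adjusted p = 0.287), with r at 0.64 without 2 dogs and 0.41 within Golden Retrievers. MCAM and TM4SF18 had r = 0.70 (permutation p = 0.0239, adjusted p = 0.359) and rho = 0.77 (permutation p = 0.0128, adjusted p = 0.287), with r at 0.55 without 2 dogs and 0.67 within Golden Retrievers. Within the 6 Golden Retrievers the median r of the 45 pairs was 0.04, without Dal-4 it was 0.07, and without both Dal-4 and CHAD-G4 it was 0.10. The 3 non-Golden Retrievers are too few for a correlation of their own.

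**Figure D3:**
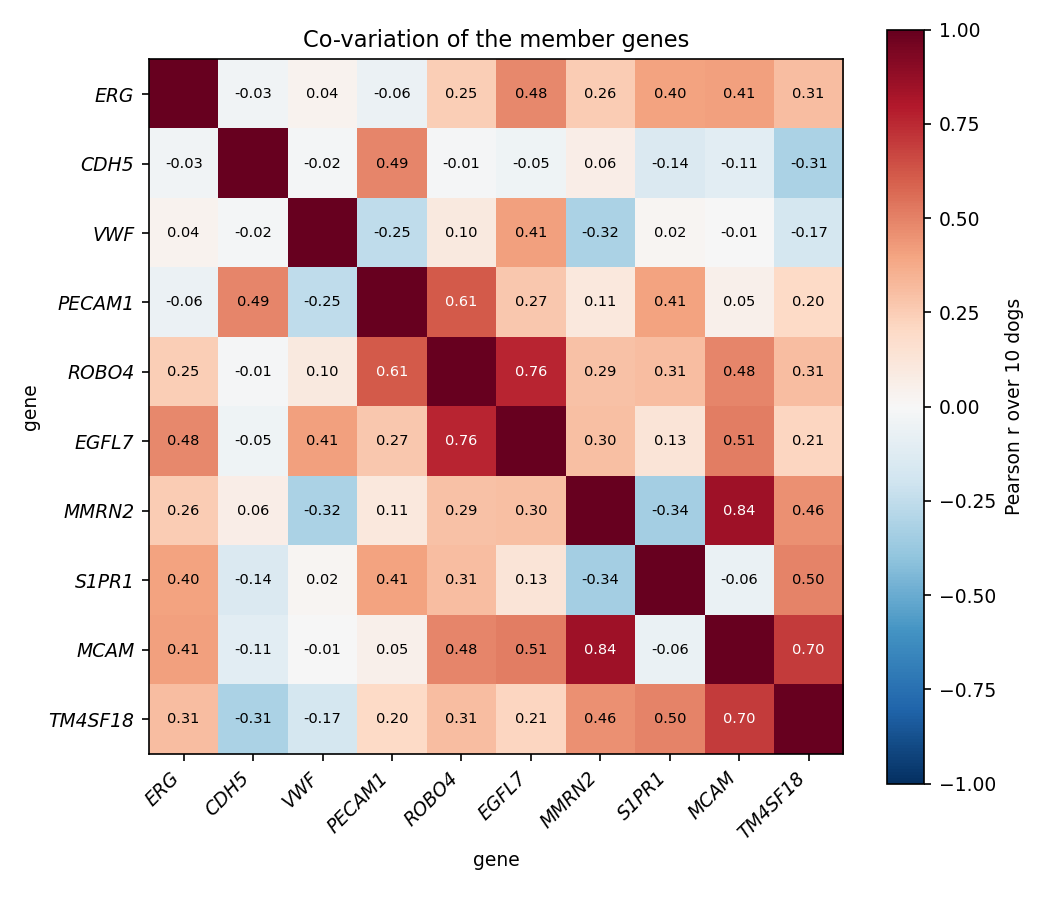
Pearson's r over the 10 dogs for each pair of genes, each by its brightest probe set, on a color scale between -1 and 1. MMRN2 with MCAM (0.84), ROBO4 with EGFL7 (0.76) and MCAM with TM4SF18 (0.70) are the darkest cells, and no pair with ERG, CDH5 or VWF reaches 0.5.

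Some members followed the 40th percentile of the array, which is not the level of the whole array. Dal-4 and Joey had the lowest 40th percentiles (5.02 and 5.03) but the highest upper quartiles (8.12 and 8.10). Journey and CHAD-G8 had the highest 40th percentiles (5.16 and 5.14), with upper quartiles of 7.97 and 7.92. Correlations of the members with the upper quartile are not given. MCAM correlated with the 40th percentile of the array at r = 0.85 (permutation p = 0.0014, adjusted p = 0.014 over 10 genes) and rho = 0.84 (permutation p = 0.00392, adjusted p = 0.0392), with r at 0.75 without Journey and CHAD-G8, the 2 dogs farthest from the median percentile, and 0.82 within Golden Retrievers. MMRN2 had r = 0.75 (permutation p = 0.0101, adjusted p = 0.0506) and EGFL7 had 0.71 (permutation p = 0.0256, adjusted p = 0.0852), and for both rho was like r, 0.75 and 0.71 (adjusted permutation p = 0.0671 each). ERG had 0.54 and VWF -0.02. With each array set relative to its 40th percentile, a setting chosen after the data were seen, the median r of the 45 pairs was 0.07, and MMRN2 with MCAM had 0.75. The part of the 40th percentile in the co-variation was not tested further.

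Probe sets of 1 gene agreed for EGFL7, where the 2 had r = 0.88 (rho = 0.93) over the 10 dogs. For MCAM, the brightest probe set rose with 2 others (r = 0.74 and 0.68), was nearly unrelated to another (r = 0.11) and ran against the dimmest (r = -0.95, rho = -0.98), which was under the line in all dogs at 4.46 to 4.77 in Golden Retrievers and 4.67 in the F1 dog, against 4.65 to 4.86 in non-Golden Retrievers. The 2 probe sets of ROBO4 had r = 0.23, and the brightest of TM4SF18 had 0.34 and -0.23 with its others, which were under the line in all dogs. These values are descriptions.

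**Figure D4:**
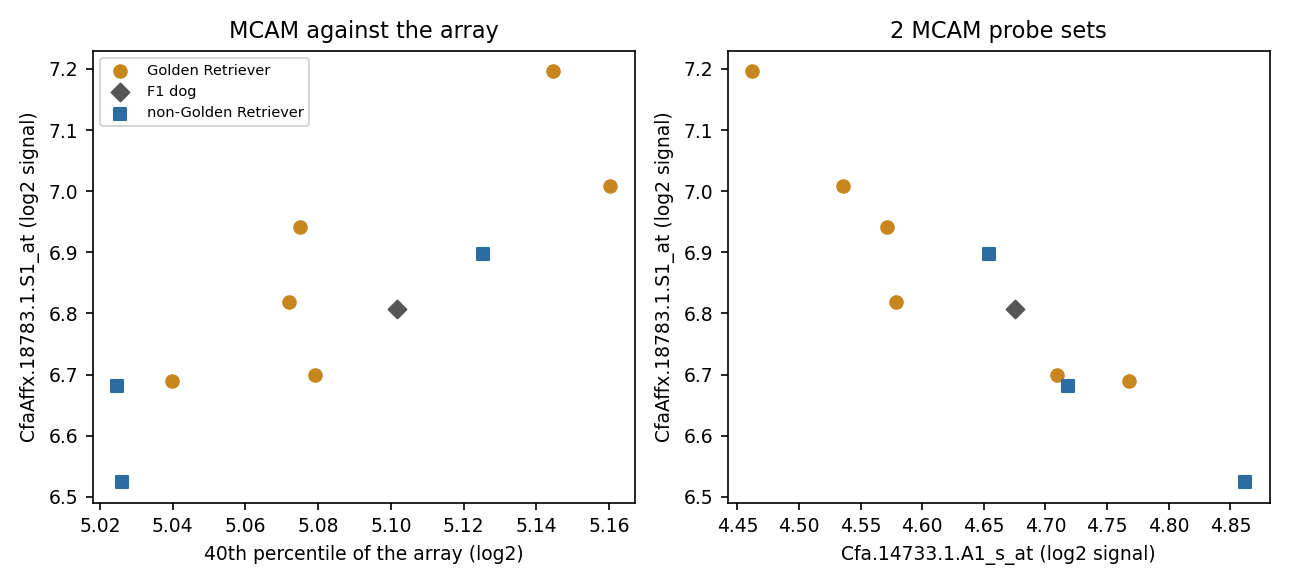
Log2 signal of the brightest MCAM probe set in each dog (vertical axes) against the 40th percentile of that dog's array (left) and against a second MCAM probe set that lay under the line in all dogs (right), with circles for Golden Retrievers, a diamond for the F1 dog and squares for non-Golden Retrievers. The signal rises with the array's percentile (r = 0.85) and falls as the second probe set rises (r = -0.95).

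For ERG, CDH5 and PECAM1 the named genes most like them over the 10 dogs were listed among 4833 tested probe sets with an SD of at least 0.5. ERG ran with CEMIP2, a hyaluronan-degrading membrane protein (r = 0.94), NMNAT2, an enzyme that makes NAD (0.93), CYP27C1 (0.92), TIMP1, an inhibitor of matrix metalloproteinases (0.92), and IKBIP (0.90). CDH5 ran with CAMK1D (0.78), the chaperone HSPH1 (0.76), ARHGAP29 (0.73), the MHC class I gene DLA-64 (0.73) and ACSL5 (0.71). PECAM1 ran with SQOR (0.89), VARS2 (0.84), MTURN (0.81), SOAT2 (0.80) and KCTD16 (0.80), though its own signals were under the line. These are the highest of 4833 values over 10 dogs and are given without a test. For ERG, no r is given without Joey and Dal-4, the 2 dogs with the least ERG.

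Of 35 other endothelial genes with a probe set, each taken by its brightest, 9 (25.7%) were above the line in all dogs, 9 in some and 17 (48.6%) in 0. Of all named genes, 64.0% were above it in all dogs and 22.1% in 0. TEK, ESAM, CLEC14A, CD93, EMCN, PLVAP, DLL4, NOS3 and TAL1, which encode receptors, junction and surface proteins, a nitric oxide synthase and a transcription factor of endothelial cells, were under the line in all dogs, as PECAM1 was. FLT1 (VEGF receptor 1) varied most, at 8.33 in CHAD-G4, 8.38 in CHAD-G8 and 6.77 in CHAD-G6 and 3.67 to 5.39 in the other Golden Retrievers, and 4.64 in the F1 dog, against 3.50 to 4.98 in non-Golden Retrievers. CALCRL, the receptor subunit for adrenomedullin, had 4.66 to 7.59 in Golden Retrievers and 7.30 in the F1 dog, against 8.18, 4.53 and 7.95 in CHAD-P9, Dal-4 and Joey. TM4SF1, a relative of TM4SF18, had 7.37 in CHAD-G4 and 7.45 in CHAD-G8, 4.55 to 5.50 in the other Golden Retrievers and 4.66 in the F1 dog, against 4.30 to 4.78. Above the line in all dogs were PROCR, KDR (VEGF receptor 2), TIE1, CLDN5, CD34, NOTCH4, APLNR, STAB1 and ARHGEF15. KDR had 6.56 to 7.83 in Golden Retrievers and 7.77 in the F1 dog, against 8.25, 7.38 and 6.51 in CHAD-P9, Dal-4 and Joey. PROCR, the endothelial protein C receptor, had 7.33 to 9.15 in Golden Retrievers and 7.35 in the F1 dog, against 6.33 to 7.84. The 14 tested genes of this list had a median difference of 0.18, with 11 higher and 3 lower in Golden Retrievers and 0 at an unadjusted p under 0.05.

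Of 15 endothelial transcription factors with a probe set, ERG included and each by its brightest probe set, 5 (33.3%) were above the line in all dogs. Another 5 were above it in some and 5 (33.3%) in 0, against 64.0% of all named genes in all dogs and 22.1% in 0. KLF4, a flow-responsive factor, had 10.17 to 11.94 in Golden Retrievers and 10.66 in the F1 dog, against 9.07, 10.43 and 12.67 in CHAD-P9, Dal-4 and Joey. LMO2, a partner of TAL1, had 7.60 in CHAD-G4, 6.40 to 6.78 in the other Golden Retrievers and 8.46 in the F1 dog, against 5.94 to 6.30. The LMO2 difference was 0.62 with CHAD-G4 included (SE 0.254, adjusted p = 0.774 by limma), and it is not given without CHAD-G4. In that fit, with ERG, LMO2 was the second of 7 tested factors at an unadjusted p under 0.05. Of all 11139 tested named genes, 187 were higher and 497 lower in Golden Retrievers at that limit. MEF2C was above the line in CHAD-G4 alone (5.47), the dog with the highest VWF signal. The closest relative of ERG, FLI1, was above the line in CHAD-G8 and Journey only, at 5.19 and 5.44. HEY1, a Notch target, had 5.59 to 7.31 in Golden Retrievers and 6.76 in the F1 dog, against 6.05 to 7.33.

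All 6 lymphatic endothelial markers were above the line in at least 1 dog, and 3 (50%) in all. Of all named genes, 64.0% were above it in all dogs and 22.1% in 0. PDPN (podoplanin) had 12.04 to 12.79 in Golden Retrievers and 12.10 in the F1 dog, against 4.33 in CHAD-P9, 11.28 in Dal-4 and 12.20 in Joey. LYVE1, a hyaluronan receptor, had 9.32 in CHAD-G4 and 8.32 in CHAD-G6 and 3.81 to 7.09 in the other Golden Retrievers, and 7.51 in the F1 dog, against 8.16, 6.23 and 6.08. PROX1, the factor that sets lymphatic identity, was above the line in Dal-4 alone, at 5.10. Of the 9 genes of the S1P pathway, S1PR1 included, 7 (77.8%) were above the line in all dogs and S1PR3 and SPNS2 in 0.

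**Figure D5:**
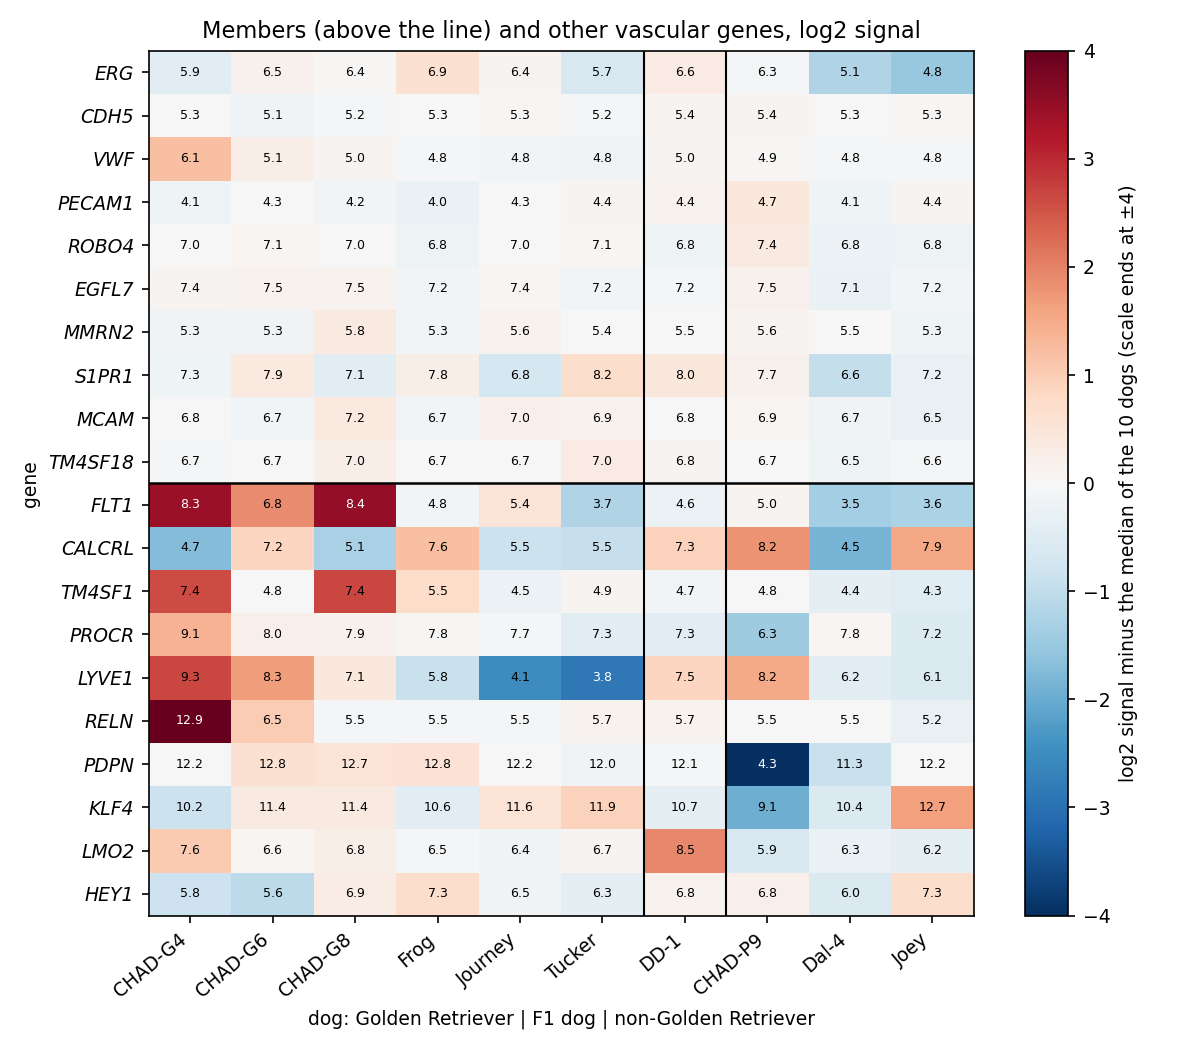
Log2 signal (printed in each cell) of the 10 member genes, above the black line, and of 10 other vascular, lymphatic and transcription factor genes, below it, in each dog, with Golden Retrievers on the left, the F1 dog next and non-Golden Retrievers on the right. Color gives the signal minus the median of the 10 dogs. Members are pale, whereas FLT1, TM4SF1, LYVE1 and PDPN differ by several log2 units between dogs. RELN does so through CHAD-G4 alone (12.9, against 5.2 to 6.5 in the other dogs).

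Some markers of other cell types were above the line beside the members. By the brightest probe set, 64.0% of all named genes were above the line in all dogs and 22.1% in 0. The shares above it in all dogs were 66.7% for fibroblast, 45.5% for smooth muscle and pericyte and 40% for leukocyte markers. For platelet and epithelial markers they were 60% and 0%. All 12 fibroblast markers were above the line in at least 1 dog and 8 in all dogs, and COL1A1, COL1A2 and COL3A1 had 13.17 to 14.33 in Golden Retrievers and 13.43 to 14.28 in the F1 dog, against 12.84 to 14.26 in non-Golden Retrievers. Other fibroblast markers differed widely between dogs: LUM had 4.40 in Dal-4 and 12.47 to 14.08 in the other 9. Over the 10 dogs POSTN had 3.38 to 10.08, DPT 4.39 to 10.54 (7.51 or less without CHAD-G4) and FAP 6.53 to 11.47. The summed linear signal of the fibroblast list was 73092 to 90981 in Golden Retrievers and 84178 in the F1 dog, against 54569 to 80964 in non-Golden Retrievers (67118 or more without Dal-4). For smooth muscle and pericyte markers it was 8481 to 39534 in Golden Retrievers (23247 or more without CHAD-G4, whose ACTA2 was 6.39 against 13.37 to 14.13 in the other 5) and 34529 in the F1 dog, against 18006 to 39430 in non-Golden Retrievers (21430 or more without Dal-4), with 5 of 11 genes above the line in all dogs and RGS5, NOTCH3 and ABCC9 in 0. Of 10 leukocyte markers, 4 (CD14, CD68, CSF1R and CD3E) were above the line in all dogs and PTPRC, SPI1, ITGAM, LYZ, TYROBP and CD79A in 0. CD14 had 5.98 to 7.98 and CD68 5.58 to 6.98 over the 10 dogs. The sums of the leukocyte list were 355 to 564 in Golden Retrievers and 399 in the F1 dog, against 340 to 465 in non-Golden Retrievers. Of 4 epithelial markers with a probe set, 0 were above the line in all dogs, KRT8 was above it in 9, KRT18 in 7, EPCAM in Tucker and Joey and CDH1 in 0, and the sums were 1270 to 12250 in Golden Retrievers and 6152 in the F1 dog, against 379 to 7645 in non-Golden Retrievers. Of 5 platelet and megakaryocyte markers, ITGA2B, GP9 and ITGB3 were above the line in all dogs and GP1BA and PPBP in 0, with sums of 425 to 937 in Golden Retrievers and 555 in the F1 dog, against 564 to 827 in non-Golden Retrievers. Each sum follows its brightest probe sets and is not an amount of a cell type. In the platelet list the brightest was ITGB3, at 7.54 to 9.48 over the 10 dogs. In the epithelial list the highest sum, in Journey, held a KRT18 signal of 13.22. The part of these markers in the member signals was not tested.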

How the data were processed

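Biotin-labelled RNA of 10 cultures was hybridized to Canine_2 arrays, 1 per dog. The authors summarised probe intensities by robust multiarray average (RMA) and deposited the result on a log2 scale, and the submitters' processing notes name RMA and affy, with no version. The detection calls behind the study's filter on absent genes were not used here, and the 40th percentile of each array took their place. From the 43035 deposited probe sets, 111 controls were left out. Gene names came from the array annotation, which gave 1 gene to 29254 probe sets, several to 439 (not named here) and none to 13231, and chromosomes came from a RefSeq gene table. Breed groups are those of the labels, and the sex of the dogs came from the study's description. Differences were fitted with limma 3.58.1 in R 4.3.3 on 26891 probe sets above the 40th percentile on at least 3 arrays, two-sided, with Benjamini-Hochberg adjustment over all of them, and the fit was tested on simulated data. Correlations used numpy 2.4.6 and scipy 1.17.1, with 100000 permutations of the dogs. Named were all member genes, and of each other list up to 4 genes of largest SD and defining markers under the percentile in all dogs, while CDH5, ERG and PECAM1 each had the 5 genes of highest r. FLI1, HEY1, S1PR3, SPNS2, the 3 collagens, EIF2S3, the 8 endothelial genes above the line in all dogs besides PROCR and the platelet genes were named outside this rule, after their values were seen. Members, lists and tests were chosen with earlier results of these data known. Alternatives changed the filter, the scaling, the test, the place of the F1 dog, the percentile and single dogs. Neither the labels nor the values give scan dates or batches, so none was tested.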

Additional observations from a re-analysis of the deposited data

Results flagged for a closer look

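Within the 6 Golden Retrievers, 2 of the 27 member probe sets had 1 dog far from the others by Dixon's ratio, the gap to the nearest dog divided by the group's range (critical value 0.625). Chance marks about 1 in 20 groups, which would be 1.35 of 27. The VWF signal of CHAD-G4 (6.08) had a ratio of 0.708, against 4.75 to 5.14 in the other 5. The brightest ROBO4 probe set was lowest in Frog (6.82, ratio 0.656), with the other 5 above it and the highest at 7.10.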

How the results depend on the processing

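Under 19 alternatives, 0 member probe sets passed the adjusted test in each. Of 152 differences of 8 genes at their brightest probe set, 143 kept their direction and stayed on the same side of the adjusted threshold, 9 changed direction, and the smallest adjusted p was 0.292, for ERG without CHAD-P9. Those that changed direction belonged to ROBO4 and MMRN2, whose differences were 0.02 each. ROBO4 had -0.0064 with the F1 dog counted as a Golden Retriever, -0.016 with arrays set to their 40th percentile, and -0.086 (without Dal-4) to 0.21 (without CHAD-P9) with 1 dog left out. MMRN2 had -0.017 with arrays set to their 40th percentile, -0.0032 after quantile normalization, and -0.055 (without Joey) to 0.078 (without CHAD-P9) with 1 dog left out. ERG stayed positive, at 0.61 (without Joey) to 1.34 (without CHAD-P9). Its unadjusted call, 1 member, became 0 with the F1 dog counted as a non-Golden Retriever, among males alone and by the methods' t-test, and 0 to 1 with 1 dog left out.

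Over all probe sets, the count at an adjusted p under 0.05 was 1, and it was 0 with the F1 dog as a non-Golden Retriever, 0 with a filter on at least 6 arrays, 2 by the methods' t-test, and 1 to 2 with 1 dog left out (2 without Joey). The count at an unadjusted p under 0.05 was 1699, and it was 922 with the F1 dog as a non-Golden Retriever and 968 (without Dal-4) to 3144 (without CHAD-P9) with 1 dog left out. The cause was not tested. The 13 member probe sets above the percentile on all arrays became 15 at the 30th percentile, 6 at the 50th and 2 at the 60th, and 13 to 14 with 1 dog left out. The median r of member pairs, 0.21, was 0.036 in the 6 Golden Retrievers and 0.066 (without Dal-4) to 0.28 (without CHAD-G4) with 1 dog left out. Arrays set to their 40th percentile, and the pair CHAD-G4 and Dal-4 left out, were chosen after seeing the data. No paired analysis was possible because the groups hold different dogs, and nothing in the labels ties a dog of 1 group to a dog of another.

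Signals near or under the 40th percentile limit what CDH5, VWF, PECAM1 and MMRN2 can show, and 10 arrays limit the rest. For the other members, a signal above that percentile does not by itself show expression.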
